A study of Ovis aries with 18 samples.

Results

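The genes described here are 4 of the 25197 Ensembl sheep genes counted in the ovine pars tuberalis (PT), chosen on the measured values themselves for large decreases in long photoperiod (LP) against short photoperiod (SP). All 4 were among the 13446 genes that passed the low-count filter. They are ENSOARG00000011470, ENSOARG00000005903, ENSOARG00000013347 and ENSOARG00000011981, which the study's own gene lists name RPE65, NPSR1, CHGA and FAM122B. The count files carry no names, so these symbols rest on that pairing alone. Because the LP against SP values chose the genes, those differences are given as a description with no test. Tests are given only for time spent within a photoperiod, SP16 against SP4 and LP22 against LP4, and these share their animals with the comparisons that chose the genes.

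All animals were neutered male Scottish Blackface sheep, and RNA was taken from dissected PT. The SP4 and SP16 groups had been held on short days for 4 and 16 weeks, and the LP4 and LP22 groups on long days for 4 and 22 weeks. Each group held 4 labelled samples, treated here as separate animals. The labels do not state the separation, so the p-values measure the spread between these samples. SP and LP durations matched only at 4 weeks.

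The PT is the thin part of the anterior pituitary that wraps the stalk under the hypothalamus. Its thyrotroph cells read day length through melatonin, and in long days they secrete thyrotropin that acts on the hypothalamus above. CHGA is chromogranin A, an acidic protein packed with hormones into the dense-core secretory granules of endocrine cells, and the study followed its protein by antibody staining. NPSR1 is the receptor for neuropeptide S, coupled to G proteins. RPE65 is the isomerohydrolase of the visual cycle, known for regenerating the retinal chromophore in the pigment epithelium of the eye. The role of FAM122B is left unstated here. In whole tissue, fewer expressing cells and less RNA per cell cannot be told apart.

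Total gene counts ran from 1746861 to 5850281 in the 15 animals used. A library of LP4 animal 3, and the first of the 2 libraries of LP4 animal 2, stood apart. In them 52.6% and 31.0% of the aligned reads fell in genes, against 15.3% to 21.3% in the other 16 libraries, and their median correlations with the other libraries were 0.443 and 0.708 against 0.922 to 0.951. Levels are in CPM, gene counts scaled to 1e+06 per library after the scaling named below. TSHB, the thyrotropin subunit that marks the LP state, stood at 1.23 CPM in LP4 animal 3 and at 9.07 in that first library. In the 3 LP4 animals used TSHB stood at 277 to 538 CPM, in LP22 at 147 to 320 and in the SP animals at 1.39 to 21.0. SHH, another gene high in LP, was at 69.7 and 19.1 CPM in the same 2 libraries, against 17.6 to 28.1 in the LP4 animals used and 0.452 to 2.56 in the SP animals. The library labelled LP4 animal 3 therefore went against its label for TSHB and with it for SHH. It is given apart from the LP4 means, and LP4 animal 2 is represented by its repeat library. That repeat library gave the 21.3% and the 0.922 at the ends of those ranges. Its 10 highest genes held 59.2% of its counts, against 65.2% in LP4 animal 3 and 37.6% to 47.1% in the libraries otherwise used. All levels above and below are CPM of libraries scaled by the trimmed mean of M values (TMM), unless given without scaling. The TMM factor of LP4 animal 2 was 0.633, beside 0.649 for LP4 animal 3 and 0.965 to 1.083 in the other animals used. Since gene lengths were not used, levels are compared between groups and not between genes.

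By the group with their lowest mean, the 4 genes fell into 2 patterns. For NPSR1 and FAM122B the LP4 and LP22 animals overlapped, so the order of those means was not resolved. RPE65 and NPSR1 had their lowest mean after 4 weeks of LP, with fitted levels at 16.3% and 6.62% of SP4. CHGA and FAM122B had theirs after 22 weeks of LP, with fitted levels at 14.8% and 16.0% of SP16, and at 53.9% and 57.7% of SP4 after 4 weeks. Ranked by fitted log2 fold change over the 13446 genes, with rank 1 the lowest, NPSR1 was 6 and RPE65 was 12 in LP4 against SP4, where CHGA was 225 and FAM122B was 297. In LP22 against SP16, CHGA was 1, FAM122B was 3, NPSR1 was 8 and RPE65 was 742. NPSR1 was thus near the bottom of both rankings, RPE65 of the early one, and CHGA and FAM122B of the late one.

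**Figure D1:**
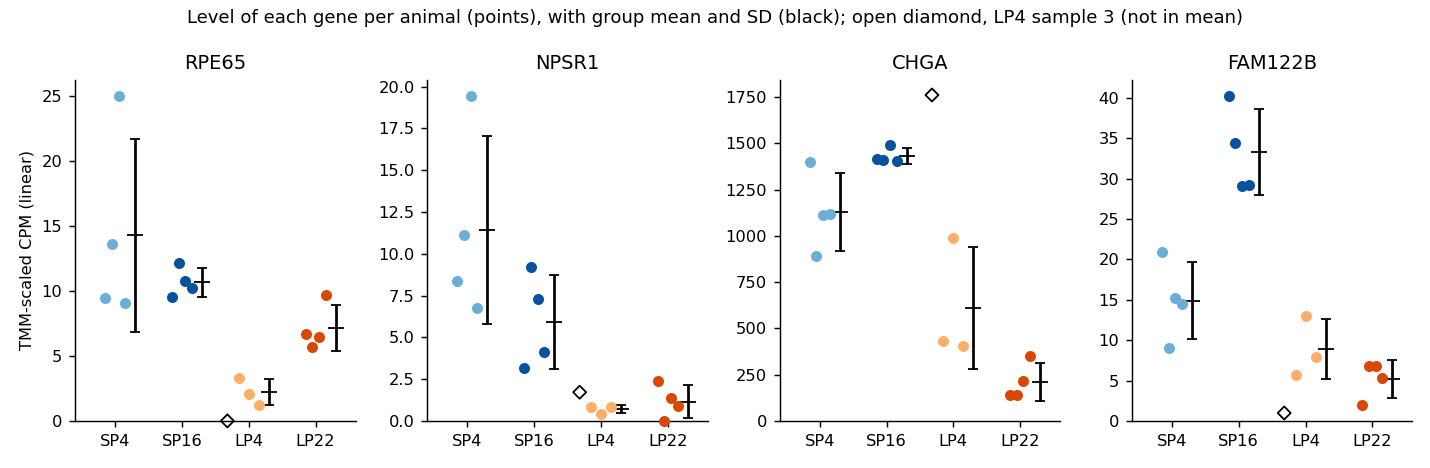
TMM-scaled CPM (linear axis from 0, a separate scale for each gene) of RPE65, NPSR1, CHGA and FAM122B in each animal of SP4, SP16, LP4 and LP22. Coloured points are animals, the black marks are the group mean and SD, and the open diamond is LP4 animal 3, which is in no mean. RPE65 and NPSR1 are lowest in LP4, while CHGA and FAM122B are lowest in LP22 and highest, over the animals in the means, in SP16.

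NPSR1, the neuropeptide S receptor, was the gene of the 4 with the deepest early difference. In SP4 animals 1 to 4 it stood at 8.38, 11.1, 19.4 and 6.77 CPM. In LP4 animals 1, 2 and 4 it stood at 0.817, 0.419 and 0.839 CPM, from counts of 2, 1 and 2. Every LP4 animal was far below every SP4 animal, and the groups did not overlap. The fitted log2 fold change was −3.92 (SE 0.62), and the ratio of pooled levels was 15.2-fold lower in LP4, with a 95% counting interval of 6.37 to 47.7 that covers counting error only.

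NPSR1 was low in LP22 as well. The LP22 animals had 2.40, 0, 1.36 and 0.879 CPM, where the count of 0 in animal 2 allows up to 1.71 CPM. The SP16 animals had 3.17, 9.22, 7.27 and 4.10 CPM, all above every LP22 animal. The log2 fold change was −2.26 (SE 0.56), from 11 counts in all of LP22 and 55 in SP16. Every LP animal used was below every SP animal for NPSR1, alone among the 4 genes, a pattern held by 0.454% of all genes tested. LP4 animal 3 had 7 counts, 1.72 CPM, also below every SP animal.

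RPE65, the retinoid isomerohydrolase, was low at 4 weeks of LP and nearer to its SP level at 22 weeks. Its SP4 values were 9.45, 13.6, 24.99 and 9.03 CPM, and its LP4 values 3.27, 2.09 and 1.26 CPM from counts of 8, 5 and 3. The LP4 and SP4 animals did not overlap, and SP4 animal 3 was the highest of all. The log2 fold change was −2.61 (SE 0.41) and the pooled ratio 5.82-fold lower in LP4 (95% counting interval 3.47 to 10.4). LP4 animal 3 had 0 counts of RPE65, which allows up to 0.736 CPM.

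At 22 weeks of LP the RPE65 values were 6.71, 5.70, 6.48 and 9.67 CPM, and at 16 weeks of SP they were 9.51, 12.1, 10.7 and 10.2 CPM. LP22 animal 4 lay above the lowest SP16 animal, so these groups overlapped. The log2 fold change was −0.57 (SE 0.32). RPE65 was thus a gene whose photoperiod difference was mainly that of the 4-week groups.

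CHGA, the granule protein, was counted far more deeply, at 243 to 7859 counts an animal. It stood at 1402, 891, 1111 and 1117 CPM in SP4 and at 1417, 1412, 1493 and 1404 CPM in SP16. In LP4 it stood at 431, 991 and 406 CPM, and in LP22 at 139, 139, 214 and 354 CPM. Every LP22 animal was below every other animal in the fit. LP4 animal 2 was above SP4 animal 2, so LP4 and SP4 overlapped, and the remaining LP4 animals were below every SP4 animal.

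The log2 fold change of CHGA was −0.89 (SE 0.31) in LP4 against SP4 and −2.76 (SE 0.30) in LP22 against SP16. The late value was the lowest of all genes tested, and the group means were 211 ± 101 CPM in LP22 (SD, n = 4) and 1432 ± 41.5 CPM in SP16 (SD, n = 4). The early value rested on LP4 animal 2, without which it was −1.43. That animal had the lowest TMM scaling factor of the fit, 0.633, and its CHGA level was 624 CPM without scaling. Its first library, from which nothing was used, gave 1360 CPM.

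LP4 animal 3 had 1762 CPM of CHGA, above every animal in the fit, with the early log2 fold change at −0.33 (SE 0.41) when it was included. Its unscaled level was 1134 CPM. Thus the 2 libraries that stood apart carried SP-like CHGA. In LP4 animal 3, FAM122B was at 0.981 CPM from 4 counts (counting interval up to 2.51), and RPE65 had 0 counts (up to 0.736). In the first library of LP4 animal 2 each gene had 1 count, 0.907 CPM (counting interval 0.023 to 5.05). These upper bounds lay below the lowest SP animal, at 9.07 CPM for FAM122B and 9.03 for RPE65. The lowest LP animals used, at 1.92 and 1.26 CPM from 4 and 3 counts, were not resolved from these libraries. The early value of CHGA therefore depended on which LP4 libraries were used, and the late difference did not use these libraries.

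FAM122B had the same order of groups as CHGA at a lower count. Its SP4 values were 20.9, 9.07, 15.3 and 14.5 CPM and its SP16 values 40.3, 34.5, 29.1 and 29.2 CPM. Its LP4 values were 5.72, 13.0 and 7.97 CPM and its LP22 values 1.92, 6.84, 6.82 and 5.28 CPM. SP16 was above all other groups in every animal, and LP4 and SP4 overlapped through LP4 animal 2 and SP4 animal 2, the same animals as for CHGA. Without scaling these 2 animals stood at 8.17 and 9.42 CPM of FAM122B, so this overlap rested on the scaling. The log2 fold change was −0.79 (SE 0.32) in LP4 against SP4 and −2.64 (SE 0.31) in LP22 against SP16.

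Groups that did not overlap were counted beside the background of all genes. In LP4 against SP4, 2 of the 4 genes (RPE65 and NPSR1) had every LP animal below every SP animal, as did 5.63% of all genes. In LP22 against SP16, 3 of the 4 (NPSR1, CHGA and FAM122B) did, as did 5.5% of all genes. These comparisons chose the genes, so nothing is read from the counts.

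**Figure D2:**
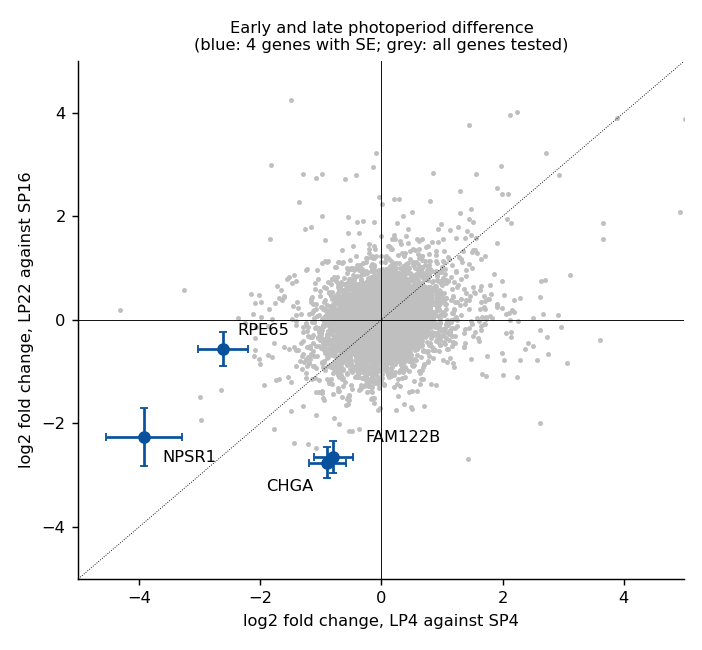
Log2 fold change of LP4 against SP4 (horizontal) and of LP22 against SP16 (vertical) for all genes tested (grey) and for the 4 genes (blue, bars are SE). The dotted line marks equal early and late values, and 9 genes lie outside the axis limits of 5. RPE65 (−2.61 and −0.57) and NPSR1 (−3.92 and −2.26) lie above the line, CHGA (−0.89 and −2.76) and FAM122B (−0.79 and −2.64) below it.

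The late minus early difference of the log2 fold changes was 2.05 (SE 0.54) for RPE65 and 1.65 (SE 0.98) for NPSR1, the positive sign meaning a smaller deficit late. It was −1.86 (SE 0.41) for CHGA and −1.85 (SE 0.46) for FAM122B. Both values come from the comparisons that chose the genes and carry no test. NPSR1 is set with the early genes for its lower mean at 4 weeks of LP.

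Each late minus early difference is the LP22 against LP4 change less the SP16 against SP4 change, and the genes divided differently between these 2 steps. For CHGA most of it lay within LP, at −1.52 (SE 0.30), with 0.34 (SE 0.28) within SP. For FAM122B more lay within SP, at 1.1045 (SE 0.25), with −0.75 (SE 0.38) within LP. For RPE65 most lay within LP, at 1.67 (SE 0.45), with −0.37 (SE 0.29) within SP. For NPSR1 the within-LP step was 0.76 (SE 0.89) and the within-SP step −0.89 (SE 0.39).

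In SP16 against SP4, none of the 4 genes passed a false discovery rate (FDR, the Benjamini-Hochberg adjusted p) of 0.05 in the edgeR quasi-likelihood test, beside 0.00744% of all genes, a single gene. At an unadjusted p under 0.05, 2 of the 4 did, beside 10.7% of all genes. FAM122B was nearest, with a mean of 33.3 ± 5.31 CPM in SP16 (SD, n = 4) against 14.9 ± 4.83 CPM in SP4 (SD, n = 4), a 2.15-fold difference with an edgeR FDR of 0.132. It was higher in 4 of 4 SP16 animals than in any SP4 animal, and it passed by the DESeq2 Wald test (FDR = 0.0334) and by the edgeR exact test on the 2 groups (FDR = 0.000272), with edgeR and DESeq2 FDRs over all alternatives from 0.000272 to 1. NPSR1 was 1.86-fold lower in SP16 (edgeR FDR = 0.413), with overlapping groups.

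CHGA and RPE65 differed less with time in SP. CHGA was 1.27-fold higher in SP16 (edgeR FDR = 0.718), and although its lowest SP16 animal, at 1404 CPM, lay above its highest SP4 animal, at 1402 CPM, those values agree within counting error. RPE65 had a log2 fold change of −0.37 (edgeR FDR = 0.700), which rested on SP4 animal 3 and was 0.0096 without it. SP16 animals not overlapping and above SP4 were seen for 2 of the 4 genes, FAM122B and CHGA, beside 3.35% of all genes.

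In LP22 against LP4, none of the 4 genes passed an edgeR FDR of 0.05, beside 0.0297% of all genes, and 2 of the 4 had an unadjusted p under 0.05, beside 8.71% of all genes. CHGA was 2.88-fold lower in LP22 (edgeR FDR = 0.140), and every LP22 animal was below every LP4 animal, as for 3.61% of all genes, with CHGA the single case among the 4. It passed by DESeq2 (FDR = 0.0313) and by the edgeR exact test (FDR = 0.0379). Without LP4 animal 2 the log2 fold change was −0.98 (edgeR FDR = 0.354), and it passed without LP4 animal 1, LP4 animal 4 or LP22 animal 4, with the lowest of these edgeR FDRs at 0.0227. Over all alternatives its edgeR and DESeq2 FDRs ran from 0.0145 to 0.486.

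RPE65 went the other way, 3.19-fold higher in LP22 than in LP4 (edgeR FDR = 0.247). Its means were 7.14 ± 1.74 CPM in LP22 (SD, n = 4) and 2.21 ± 1.01 CPM in LP4 (SD, n = 3). All 4 LP22 animals were above all 3 LP4 animals, as for 3.76% of all genes, again a single case among the 4. It passed by the edgeR exact test on the 2 groups (FDR = 0.0379) and not by DESeq2, with edgeR and DESeq2 FDRs over all alternatives from 0.0379 to 0.486. NPSR1 (edgeR FDR = 0.867) and FAM122B (edgeR FDR = 0.605) overlapped between LP4 and LP22.

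**Figure D3:**
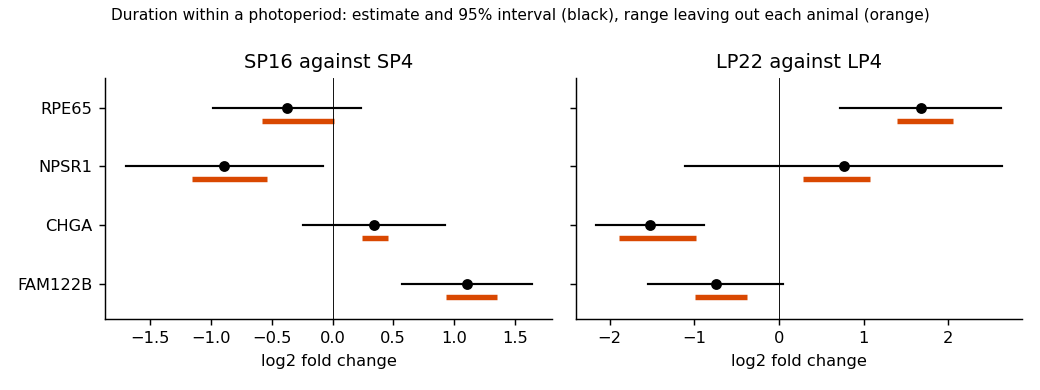
Log2 fold change with time within SP (SP16 against SP4, left) and within LP (LP22 against LP4, right) for the 4 genes. Points and black lines are the fitted value and its 95% interval, and the orange bar is the range of fitted values when each animal of the fit was left out in turn. The leave-one-out ranges lie on 1 side of 0 for each gene and step except RPE65 within SP, and the 95% intervals of CHGA within SP, RPE65 within SP and NPSR1 and FAM122B within LP include 0.

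The level of each gene was also compared between animals within a group. In the fit of all groups, the coefficient of biological variation was 0.250 for RPE65 against a trend of 0.193 for genes of like abundance. It was 0.333 for NPSR1 against 0.229, 0.285 for CHGA against 0.182 and 0.223 for FAM122B against 0.174. The share of all genes above their trend was not computed, so nothing is read from these values. Between groups, the SD as a percentage of the mean ran from 2.90% in SP16 to 54.3% in LP4 for CHGA. For RPE65 it ran from 10.4% in SP16 to 52.1% in SP4. RPE65 and NPSR1 shared their extreme animal, SP4 animal 3, the highest for both. CHGA and FAM122B were both highest, among the LP4 animals used, in LP4 animal 2, whose TMM factor was 0.633. Without scaling its CHGA, at 624 CPM, was still the highest of these animals. Its unscaled FAM122B, at 8.17 CPM, was below the 8.41 CPM of LP4 animal 4.

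Over the 15 animals, log2 levels of CHGA and FAM122B correlated at Pearson r = 0.878, and those of RPE65 and NPSR1 at r = 0.786. The cross pairs were lower, at 0.392 for RPE65 with CHGA, 0.372 for RPE65 with FAM122B, 0.675 for NPSR1 with CHGA and 0.510 for NPSR1 with FAM122B. These describe animals that share group means, scaling and the choice of genes. With group means removed, r was 0.561 for CHGA with FAM122B and 0.525 for RPE65 with NPSR1, against −0.196, 0.170, −0.0958 and −0.499 for the cross pairs in the order RPE65 with FAM122B, RPE65 with CHGA, NPSR1 with CHGA and NPSR1 with FAM122B. The pairs that shared a time course had the highest r within groups, but each pair also shared an extreme animal. The TMM factor of LP4 animal 2, at 0.633, raised its CHGA and FAM122B together. SP4 animal 3 was the highest for both RPE65 and NPSR1. The r without these animals was not computed, and the genes were chosen, so nothing about the pairing is read from these values.

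The genes most like each of the 4 over the same 15 animals were taken as the 5 with the highest r. For NPSR1 they included ILDR2 (r = 0.928), DNAH5 (r = 0.906), an axonemal dynein heavy chain of motile cilia, and CIT (r = 0.897), a kinase of cell division. DNAH5 stood at 47.1 CPM in SP4 and 31.9 in SP16, against 18.8 in LP4 and 19.2 in LP22. For CHGA they included LDB1 (r = 0.916), a LIM domain binding cofactor, and MYT1 (r = 0.908), a zinc finger transcription factor of neuroendocrine cells. MYT1 stood at 56.7 CPM in SP4, 60.9 in SP16, 36.7 in LP4 and 25.1 in LP22.

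For FAM122B the nearest genes included IGLON5 (r = 0.895), a cell adhesion protein, and EPB41L1 (r = 0.874), a membrane skeleton protein. EPB41L1 stood at 25.4 CPM in SP4, 35.4 in SP16, 21.9 in LP4 and 20.8 in LP22. For RPE65 the only named gene of the 5 was LUZP2 (r = 0.853), at 19.3 CPM in SP4, 13.9 in SP16, 8.15 in LP4 and 12.2 in LP22. The lead gene for RPE65, ENSOARG00000000716 (r = 0.881), has no name in the study's lists. The genes named here had their lowest group mean in LP4 for RPE65 and in LP22 for CHGA and FAM122B, as their partner did.

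CHGA was set beside other genes of dense-core granules. Of 12 listed, 9 had a named ID and were tested. The study's lists name genes that it called changed in its own comparisons, some of them in these samples, so the counts that follow are not independent evidence of a direction. In LP4 against SP4, 3 of the 9 were higher (edgeR FDR under 0.05) and none lower, beside 1.22% of all genes called higher and 0.573% called lower. In LP22 against SP16, 3 were higher and 1 lower, beside 1.73% higher and 1.49% lower. The median log2 fold change of the 9 was 0.38 early and 0.42 late, against 0.01 and 0.00 over all genes.

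The granule genes that rose were opposite in sign to CHGA. VGF, a granin-like precursor of secreted peptides, rose 12.7-fold in LP4 against SP4 (edgeR FDR = 3.5e-06). It rose 2.95-fold in LP22 against SP16 (edgeR FDR = 0.00286). Its means were 12.4 CPM in SP4, 44.5 in SP16, 152 in LP4 and 132 in LP22, so the references of these folds differed. PCSK1, the convertase that cuts prohormones within granules, rose 3.76-fold in LP4 (edgeR FDR = 8.48e-07) and 2.78-fold in LP22 (edgeR FDR = 7.73e-06). PTPRN, a receptor-like phosphatase of the granule membrane, rose 2.09-fold in LP4 (edgeR FDR = 0.00889), and SCG3, a secretogranin, rose 1.68-fold in LP22 (edgeR FDR = 0.0347). PCSK1 stood at 94.4 CPM in SP4, 151 in SP16, 357 in LP4 and 421 in LP22.

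CHGB, the chromogranin nearest to CHGA, was not called in either comparison, with log2 fold changes of 0.26 (SE 0.33) and 0.46 (SE 0.31). Its means were 504 CPM in SP4, 499 in SP16, 604 in LP4 and 687 in LP22. BAIAP3, which acts in dense-core vesicle trafficking, was the granule gene that fell in LP22, to 0.435 of SP16 (edgeR FDR = 0.000243). It had the group order of CHGA, at 63.0 CPM in SP4, 97.5 in SP16, 54.0 in LP4 and 42.2 in LP22.

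**Figure D4:**
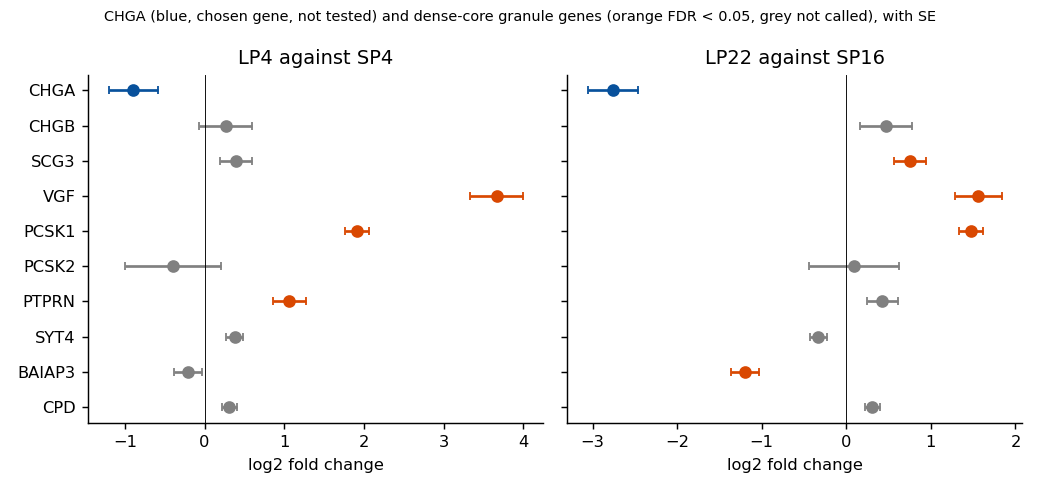
Log2 fold change with SE of CHGA (blue, a chosen gene with no test) and of 9 other dense-core granule genes in LP4 against SP4 (left) and LP22 against SP16 (right). Orange marks an edgeR FDR under 0.05 and grey the rest. CHGA is at −0.89 and −2.76, VGF at 3.66 and 1.56 and PCSK1 at 1.91 and 1.48, with BAIAP3 at −1.20 in the right panel.

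NPSR1 was set beside 16 other receptors for peptides, amines and related ligands, of which 14 were tested. In LP4 against SP4, 2 were higher and 1 lower (edgeR FDR under 0.05), beside 1.22% and 0.573% of all genes. In LP22 against SP16, 3 were higher and 1 lower, beside 1.73% and 1.49% of all genes. The median log2 fold change was −0.37 early and −0.03 late, against 0.005 and 4e-04 over all genes. The orphan receptor GPR139 rose 6.56-fold (edgeR FDR = 0.0238) and 9.33-fold (edgeR FDR = 0.0028), and the dopamine receptor DRD1 rose 3.27-fold (edgeR FDR = 0.0154) and 2.34-fold (edgeR FDR = 0.0311), early and late in that order. The receptors called went in both directions. Their names too came from the study's lists of genes it called changed, so these counts are not independent evidence of a direction.

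The receptors that fell did so in 1 comparison each. CNR1, the cannabinoid receptor, fell to 0.487 of SP4 in LP4 (edgeR FDR = 0.0386), with a log2 fold change of −0.23 (SE 0.23) in LP22 against SP16. HRH3, a histamine receptor, fell to 0.247 of SP16 in LP22 (edgeR FDR = 0.0186), with −0.70 (SE 0.45) in LP4 against SP4. Whether the early and late values of these genes differed was not tested.

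RPE65 was set beside 8 genes of retinoid transport and metabolism, of which 4 were tested. None of the 4 passed in either photoperiod comparison by edgeR or by DESeq2, and at an unadjusted edgeR p under 0.05 the numbers were 0 early and 1 late, beside 14.3% and 16.2% of all genes. That gene was ALDH1A1, a retinal dehydrogenase, with a log2 fold change of 0.59 (edgeR FDR = 0.0808) in LP22 against SP16. CYP26B1, which degrades retinoic acid, had −0.999 (SE 0.71) and −0.53 (SE 0.59). The median log2 fold change of the 4 was −1.27 early and −0.44 late, against 0.005 and 4e-04 over all genes. In LP22 against LP4 the median was 2.07, with RPE65 at 1.67. There none passed by edgeR or DESeq2, and 3 of the 4 had an unadjusted edgeR p under 0.05, beside 8.71% of all genes. Of these, CRABP1 and TTR were at 0.136 and 0.695 CPM in LP4. In SP16 against SP4 the median was 0.97, with RPE65 at −0.37.

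The study also named other marker genes of SP, and 3 were set beside NPSR1 and CHGA. In LP4 against SP4, 2 of the 3 were lower, PAQR6, a membrane progestin receptor, at 0.393 of SP4 (edgeR FDR = 0.0347), and C1orf110 at 0.16 of SP4 (edgeR FDR = 0.00105). DESeq2 called all 3 lower there. In LP22 against SP16, C1orf110 alone was lower, at 0.39 of SP16 (edgeR FDR = 0.0305), a call lost by DESeq2 (FDR = 0.0802), which called none of the 3. C1orf110 stood at 8.01 CPM in SP4, 5.69 in SP16, 1.25 in LP4 and 2.13 in LP22, the group order of NPSR1. These genes were picked by the study for this direction, in part from these samples.

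Markers of neighbouring tissue varied between animals. The summed level of 8 hormone and receptor markers of the pars distalis, the adjoining part of the pituitary, ran from 98.1 to 7958 CPM in SP4, from 98.7 to 5869 in SP16, from 122 to 517 in LP4 and from 618 to 5084 in LP22, and at most 1 of the 8 was at 0 in an animal. Most of the highest sums were PRL, at 6688 CPM in SP4 animal 4, 4548 in SP16 animal 4 and 3622 in LP22 animal 3. None of the 8 markers was called in either photoperiod comparison by edgeR or DESeq2, and at an unadjusted edgeR p under 0.05 the numbers were 3 early and 0 late, beside 14.3% and 16.2% of all genes. The LP4 animals used had the lowest ceiling of the 4 groups.

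In SP16, CHGA was 1404 CPM in the animal with the highest sum of these markers and 1493 in the animal with the lowest. In SP4 it was 1117 and 1111 CPM in the same order, with 891 and 1402 CPM in the animals between. Without SP4 animal 4, SP16 animal 4 and LP22 animal 3, the late log2 fold change was −2.77 for CHGA, −2.89 for FAM122B and −2.47 for NPSR1, and the early one was −2.76 for RPE65 and −4.08 for NPSR1. The sums of 5 thyrotroph markers ran from 597 to 1721 CPM in SP4, from 742 to 2331 in SP16, from 1341 to 2320 in LP4 and from 1571 to 1881 in LP22. The highest SP sums were in SP4 animal 4 and SP16 animal 4, also the highest of their groups in pars distalis markers. Other animals of these groups ran from 597 to 838 and from 742 to 1013 CPM, below every LP animal used. The 5 include TSHB, the LP marker above. In LP4 against SP4, 1 of the 5, TSHB, was called higher and none lower, beside 1.22% and 0.573% of all genes. In LP22 against SP16, TSHB was higher and MTNR1A lower, at 0.537 of SP16 (edgeR FDR = 0.0031), beside 1.73% and 1.49%. CGA had the highest mean of the 5 in each group and was called in neither. EYA3 had log2 fold changes of −0.115 and −0.262, also not called. The sums of 8 neuron markers ran from 75.6 to 150 CPM in SP4 and from 84.5 to 105 in SP16. They ran from 137 to 156 CPM in LP4 and from 118 to 155 in LP22, so the SP16 sums lay below both LP groups. NEFM had the highest mean of the 8 in each group, at 56.1, 44.4, 97.8 and 87.9 CPM in SP4, SP16, LP4 and LP22. In LP4 against SP4, 2 of the 8 were called higher and 1 lower, beside 1.22% and 0.573% of all genes. The lower one was AGRP, at 0.273 of SP4 (edgeR FDR = 0.0347). In LP22 against SP16, 2 were higher and none lower, beside 1.73% and 1.49%. The sums of 6 fibroblast markers ran from 290 to 367 CPM in SP4, from 339 to 543 in SP16, from 421 to 552 in LP4 and from 373 to 583 in LP22, so SP4 lay below both LP groups. Of these 6, COL3A1, a fibrillar collagen, rose 1.78-fold in LP4 against SP4 (edgeR FDR = 0.00792), where DESeq2 called 2. In SP16 against SP4 none was called by edgeR or DESeq2, and 5 of the 6 had an unadjusted edgeR p under 0.05, beside 10.7% of all genes. The sums of 4 glia markers ran from 124.5 to 230 CPM in SP4 and from 69.9 to 329 in LP4. They ran from 156 to 180 CPM in SP16 and from 97.5 to 152.5 in LP22, so LP22 lay below SP16. S100B and VIM, listed as folliculostellate-like markers, summed to 235 to 405 CPM in SP4 and 260 to 456 in SP16. Their LP4 and LP22 sums were 154.5 to 317 and 219 to 363 CPM, overlapping both SP groups. None of these glia or folliculostellate-like markers was called in either photoperiod comparison by edgeR or DESeq2. The part of these marker differences in the levels of the 4 genes was not tested.

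**Figure D5:**
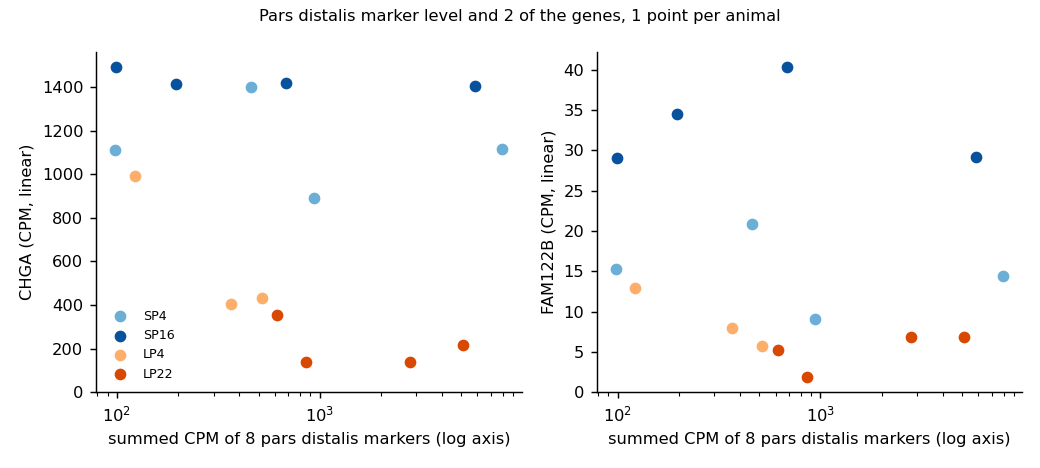
Level of CHGA (left) and FAM122B (right) in CPM on a linear axis against the summed CPM of 8 pars distalis markers on a log axis, with 1 point per animal coloured by group. SP16 animals (dark blue) stay at 1404 to 1493 CPM of CHGA over sums of 98.7 to 5869 CPM, and LP22 animals (dark orange) at 139 to 354 CPM over sums of 618 to 5084 CPM.

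Both libraries of SP4 animal 1, which were summed, could be set side by side. CHGA was 1214 and 1502 CPM, FAM122B 16.2 and 23.3 CPM, RPE65 8.62 and 9.91 CPM and NPSR1 4.31 and 10.4 CPM. The 95% counting intervals of the pair did not overlap for CHGA (1165 to 1265 and 1462 to 1541) and did for RPE65 (4.93 to 14.0 and 6.98 to 13.7). Every one of these values was above all LP22 animals for its gene except RPE65 in the first library, which lay under LP22 animal 4.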

How the data were processed

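PT RNA-seq reads were aligned by the authors (Bowtie, Oar_v3.1) and summed over genes by HTSeq. The 18 deposited libraries hold unnormalized counts. Tool versions, and whether strand was used, are not given in the sources used here, so reads of overlapping or antisense genes cannot be told apart. Counts in no gene were 78.6% to 84.6% of aligned reads in the 16 libraries that did not stand apart. Both libraries of SP4 animal 1 were summed, LP4 animal 2 was its repeat library, and LP4 animal 3 was left out. Genes were filtered by filterByExpr (minimum count 10, minimum total 15), TMM-scaled and fitted in a single edgeR 4.0.16 quasi-likelihood model of 4 groups and 15 animals (R 4.3.3), 2-sided, with Benjamini-Hochberg adjustment over 13446 genes. Log2 CPM used a prior count of 2. Counting intervals are exact Poisson for levels and exact binomial for ratios (95%), and a count of 0 was bounded by 3 counts. The fit was tested on simulated counts. DESeq2 1.42.0 was an alternative. Named genes were the 4 genes, the 5 most correlated with each (1 is not reported here) and the listed genes, and names came from 1259 ID and symbol pairs in the study's lists. The 4 genes and the lists were chosen with earlier results of these data known. Fold changes and p-values tabulated by the authors were not used. Labels share the numbers 1 to 4 between groups, and these did not pair animals (mean r of deviations −0.0102 over 21 same-number pairs, 3 above 0.1).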

Additional observations from a re-analysis of the deposited data

Results flagged for a closer look

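A pair of CHGA values stood out. SP16 animal 3, at 1493 CPM, lay far from the other SP16 animals, at 1404 to 1417 CPM, for the narrow range of that group, although its 95% counting interval, 1449 to 1539 CPM, overlaps that of each of the others. Of 12 groups of 4 animals examined in this way, chance would give about 0.6. LP4 animal 3, which is in no comparison, had 1762 CPM of CHGA, above every SP4 animal.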

How the results depend on the processing

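Over 30 alternative settings (28 for NPSR1 within LP and in the late comparison, where 2 fits on only the compared groups filtered it out, and 28 for the late minus early difference), every fitted direction was kept except RPE65 in SP16 against SP4, which was 0.0096 without SP4 animal 3 (range −0.58 to 0.0096 leaving out each animal). In SP16 against SP4, FAM122B passed at 1.102 by the edgeR exact test and 1.12 by DESeq2, so 1 of the 4 genes passed by each. In LP22 against LP4, CHGA passed at −1.52 with no filter on low counts, −1.53 by the exact test and −1.53 by DESeq2, and its range leaving out each animal was −1.89 to −0.98. RPE65 passed at 1.67 by the exact test. There 1, 2 and 1 of the 4 genes passed with no filter, by the exact test and by DESeq2, and 0 to 1 leaving out each animal. With LP4 animal 3 included, CHGA was −0.33 in LP4 against SP4 (range −1.43 to −0.67 leaving out each animal, the lowest without LP4 animal 2), and the late minus early difference was 2.60 for RPE65 and −2.42 for CHGA (range −2.23 to −1.32). All genes called in SP16 against SP4, 1 in the reported fit, were 31 with no filter, 2 with a robust fit, 0 with the first library of SP4 animal 1 only, 4 with LP4 animal 2 summed, 0 with LP4 animal 3 included, 8 on the compared groups only, 159 by the exact test, 33 by DESeq2, 0 with no scaling factor and 1 to 42 leaving out each animal. In LP22 against LP4 the 4 genes called became 32 with no filter, 2 with the repeat library of SP4 animal 1 only, 0 with LP4 animal 3 included, 0 on the compared groups only, 33 by the exact test, 14 by DESeq2, 1 with no scaling factor, 0 without the 3 animals high in pars distalis markers and 1 to 36 leaving out each animal. The exact test, no scaling factor and leaving out those 3 animals were chosen after seeing the data. The cause of these shifts was not tested. With the animal number as a replicate block, FAM122B was 1.11 in SP16 against SP4, CHGA was −1.55 and RPE65 1.54 in LP22 against LP4, the genes called numbered 1 and 3, and the block changed no call among the 4 genes. Depth limits NPSR1 in LP most, at 0 to 5 counts an animal.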
